A study of Homo sapiens with 23 samples.

Results

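Cells of HCT116, a line from a human colorectal carcinoma with wild-type p53, were compared after loss of AGO2 and after loss of AGO1. The comparison used the 3 RNAseq samples of the AGO2 knockout line against the 3 RNAseq samples of the AGO1 knockout line, 6 of the 15 RNAseq samples among the 23 samples of the series. The other 9 were wild-type HCT116 cells, AGO1/2 knockout cells and AGO1/2/3 knockout cells, 3 of each, and they were used to estimate the spread and to place the values of the single knockouts. The 8 eCLIP samples were not analysed here. All lines were grown in McCoy's 5A medium with serum and none was treated with an agent. Each knockout was made with CRISPR-Cas9 and is 1 line, and a genotype and the line that carries it cannot be told apart. The column names of the 3 AGO2 knockout samples hold the word quasi, which no other sample has, and its meaning is not stated. A way of quantification that it may name and the AGO2 genotype cannot be told apart either. RNA was measured in whole cultures, in which fewer cells of a kind and less RNA per cell cannot be told apart.

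Argonaute proteins hold a miRNA and use its first bases, the seed, to pair with target RNAs. Through the TNRC6 (GW182) scaffold proteins they bring in the deadenylation and decapping machinery, which lowers translation and stability of the target. AGO1 and AGO2 load largely the same miRNAs, and AGO2 is the member best known for cutting a fully paired target. The direct comparison asks which RNAs differed between cells that kept AGO2 and cells that kept AGO1.

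Between 27709971 and 31465835 counts were assigned to genes in the AGO1 knockout samples and between 40419152 and 45271146 in the AGO2 knockout samples, over 57875 genes listed. Normalized counts are estimated read counts scaled by TMM to the mean library size. Log2 fold changes are those of AGO2 knockout over AGO1 knockout cells unless another comparison is named, and a gene was called at an adjusted p of 0.05 or less by the quasi-likelihood test of edgeR, adjusted after Benjamini and Hochberg. The biological coefficient of variation of the replicates was 0.152. The epithelial markers EPCAM, CDH1, KRT8, KRT18, KRT19 and CDX2 had at least 255 normalized counts in all 6 samples. VIL1 and LGR5 were near 0, with at most 9.31 and 2.07. Of 20 markers of other cell types, 12 were tested, 0 were higher and 2 were lower, and their summed level was 761 to 1012 in AGO1 and 663 to 746 in AGO2 knockout samples.

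The targeted genes were read first. AGO1 RNA was at 1143, 1069 and 1312 normalized counts in the AGO1 knockout samples and at 5335, 5250.0 and 5350.4 in the AGO2 knockout samples, against 4595, 3584 and 4869 in wild-type cells. The groups were far apart, and AGO1 was 2.18 higher on the log2 scale in AGO2 knockout cells (standard error 0.12, adjusted p = 2.98e-08 by edgeR's quasi-likelihood test). AGO2 RNA was at 8705, 10442 and 9408 in the AGO2 knockout samples and at 11115, 12091 and 11649.8 in the AGO1 knockout samples. All 3 AGO2 knockout samples lay below all 3 AGO1 knockout samples, but the difference of -0.29 (standard error 0.10) missed the threshold at an adjusted p of 0.0594, and it passed under 5 of the 9 other settings that left no sample out. The AGO2 knockout line thus kept 70.4% of the wild-type level of AGO2 RNA, while the AGO1 knockout line kept 27.0% of the wild-type level of AGO1 RNA. Counts were summed over the whole gene and do not show whether an RNA carries the edit. The study verified the edits by DNA sequencing and reported loss of the targeted proteins in these lines by Western blot.

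**Figure D1:**
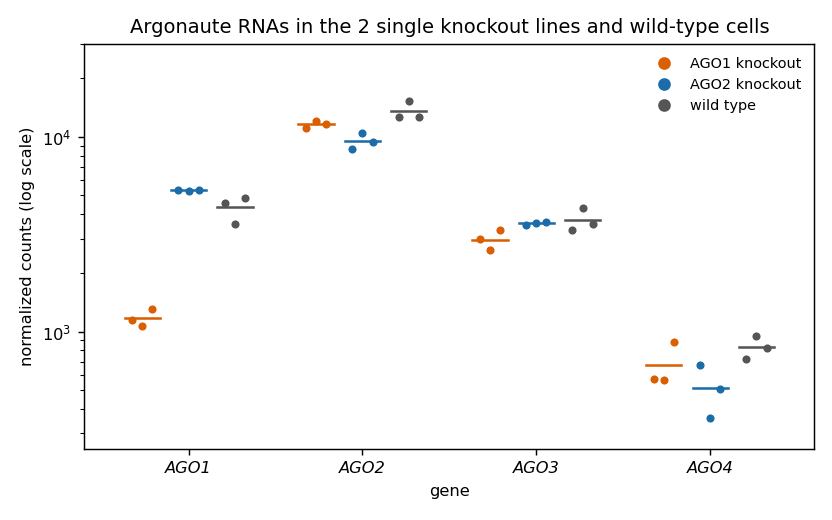
Normalized counts (log scale) of AGO1 to AGO4 in each of the 3 samples of AGO1 knockout, AGO2 knockout and wild-type cells, with points for samples and bars for means. AGO1 separates the 2 knockout lines widely, at 1069 to 1312 against 5250 to 5350, while the samples of AGO2, AGO3 and AGO4 lie close together or overlap.

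The Argonautes that were not targeted in either line did not pass the test. AGO3, which also binds miRNAs, had 2972, 2617 and 3322 normalized counts in AGO1 and 3529, 3624 and 3641 in AGO2 knockout samples (0.28, adjusted p = 0.118 by edgeR). AGO4 had 568, 565 and 887 and 676, 358 and 505 (-0.39, adjusted p = 0.247 by edgeR), and its samples overlapped. Per kilobase of exon, the level of AGO2 RNA in AGO1 knockout cells was 733 normalized counts and made up 69.96% of the summed level of the 4 Argonautes. In AGO2 knockout cells the level of AGO2 was 601 per kilobase and that of AGO1 was 378, or 49.3% and 31.1% of the sum. AGO2 RNA was therefore the most abundant of the 4 on the per-length scale in both lines, including the line in which the gene was targeted. These are levels of RNA and not of protein.

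Over 22842 genes tested, 2209 were higher and 1995 were lower in AGO2 than in AGO1 knockout cells, 18.4% in all (9.67% higher and 8.73% lower). The counts of the gene lists below are to be read against these shares and those of the class of RNA. Most lists hold mainly protein-coding genes, of which 13.5% were higher and 7.95% lower when all classes were scaled together. Of small and other RNAs, 14.3% were lower. Which direction had more calls changed with the settings given in the last section. The 2 groups of 3 samples did not overlap for 8899 genes (39.0%), with all AGO2 knockout samples above in 20.4% and below in 18.6% of the genes tested. Against the shared wild-type samples, the AGO1 knockout line had 3.17% of genes called higher and 5.5% called lower, and the AGO2 knockout line 8.55% and 10.8%. The called falls were larger than the called rises, with a median size of 0.92 on the log2 scale against 0.54. A difference of at least 2-fold was found for 901 genes called lower and 382 genes called higher, and one of at least 16-fold for 56 and 18. Without 1 sample of the compared lines, the 2 counts fell most for AGO2 knockout replicate 3 (960 higher, 1275 lower), AGO2 knockout replicate 2 (1048 and 1251), AGO1 knockout replicate 3 (1172 and 1139) and AGO1 knockout replicate 2 (1239 and 1340), fits that have fewer samples.

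The split of the calls differed by class of RNA when all classes were scaled together. Among protein-coding genes, 2003 of 14830 tested were higher and 1179 lower, with a median log2 fold change of 0.08 over all that were tested. Fitted and scaled on protein-coding genes only, 1483 of 14840 were higher and 1576 lower, with a median of 0.0080, so that the excess of rises among them was gone under that scaling. Long non-coding RNA genes were mostly on the other side, with 117 higher and 437 lower of 4815 and a median of -0.17. Pseudogenes gave 30 higher and 175 lower of 1664, and small and other RNAs 46 and 182 of 1273. Genes of all classes that averaged under 1 CPM leaned the same way, with 161 higher and 487 lower of 6759 and a median of -0.18. Those that averaged at least 1 CPM gave 2048 higher and 1508 lower of 16083 and a median of 0.05. Whether the split by class held among genes of like level was not tested. Protein-coding genes took 83.2% to 87.2% of the counts in AGO1 and 86.9% to 88.8% in AGO2 knockout samples. Of the 7043 tested genes whose estimated counts were whole numbers in all 15 samples, within 0.01, 19.9% were called, against 17.7% of the genes with estimates that were not whole.

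Among the partners of the Argonautes, the TNRC6 scaffolds moved in opposite directions. TNRC6A, which binds Argonaute and recruits deadenylases, had 4678, 3612 and 2889 normalized counts in AGO1 and 4486, 6283 and 5359.7 in AGO2 knockout samples. These samples overlapped, and the rise of 0.53 was called (adjusted p = 0.0368 by edgeR) but lost under 15 of 24 alternatives. TNRC6B fell by 0.34 on the log2 scale (adjusted p = 0.0425 by edgeR), a call lost under 9, and TNRC6C had -0.17 and did not pass. Of the 18 genes of the scaffold and deadenylation list, 4 were higher and 2 lower, with a median of 0.05 against -0.00 over all genes tested. The CCR4-NOT catalytic subunits CNOT6L (0.43) and CNOT7 (0.39) were among those higher. BTG2, an antiproliferative adaptor of the same complex and a p53 target, was among those lower (-0.51).

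Decapping and P-body genes were mostly higher where they were called, 5 of 16, with 1 lower. DCP2, the decapping enzyme, was at 3939, 3805 and 2795 normalized counts in AGO1 and 5873, 5958 and 6022 in AGO2 knockout samples. The groups did not overlap, and the rise was 0.76 (standard error 0.12, adjusted p = 0.000636 by edgeR). DDX6, the helicase that links the CCR4-NOT complex to decapping, was higher by 0.42, and LSM1, of the ring that binds deadenylated 3′ ends, by 0.65. DCP1B, a cofactor of DCP2, went the other way, from 766, 727 and 696 to 475, 364 and 431 (-0.78, adjusted p = 0.0004 by edgeR). Its level in AGO1 knockout cells was above wild type (0.70), whereas in AGO2 knockout cells the difference from wild type was -0.08 and was not called. The count of members higher was 1 without AGO1 knockout replicate 3 or AGO2 knockout replicate 2 or 3, and 3 without AGO1 knockout replicate 2 or AGO2 knockout replicate 1.

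Of 19 genes of miRNA processing and turnover, 2 were higher and 1 was lower (10.5% and 5.26%, against 9.67% and 8.73% of all genes tested). DICER1, which cuts precursor hairpins into mature miRNAs, had 4562, 4423 and 3810.1 normalized counts in AGO1 and 5236, 6797 and 6042 in AGO2 knockout samples. The rise was 0.50 (standard error 0.10, adjusted p = 0.00466 by edgeR), and every AGO2 knockout sample was above every AGO1 knockout sample. ZSWIM8, the ubiquitin ligase adaptor of target-directed miRNA decay, fell by 0.51 on the log2 scale, from 780.3, 855 and 1063 to 631, 636 and 632. SRSF3, a splicing factor that also aids processing of primary miRNAs, was called higher (0.53), a call lost under 19 of 24 alternatives. DROSHA, the nuclear enzyme that frees the hairpins, was at 2455 to 2815 and 2781 to 2948, and its difference of 0.11 did not pass. The count of members higher was 5 without AGO1 knockout replicate 1, 4 without wild-type replicate 2 and 1 without any one of the other 13 samples. ZSWIM8 was not called without AGO1 knockout replicate 3 or AGO2 knockout replicate 2 or 3.

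Mature miRNAs were not measured, but the RNAs of genes that carry miRNA hairpins were. Of 36 host genes listed, 32 were tested, 3 were higher and 2 lower, with a median of 0.09. These are 9.38% and 6.25% of the tested hosts, no more than the 9.67% and 8.73% of all genes tested. These 5 hosts carry 13 mature miRNAs, of which the 7 better-known arms are shown 5′ to 3′ from RefSeq (GRCh38.p14) with the seed, bases 2 to 8, in capitals, because the seed is the part by which an Argonaute finds its targets. The first 3 lie in hosts that were lower in AGO2 knockout cells and the last 4 in hosts that were higher.
hsa-miR-34a-5p (host MIR34AHG, chr1:9151735-9151756, minus strand): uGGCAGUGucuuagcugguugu
hsa-miR-221-3p (host MIR222HG, chrX:45746180-45746202, minus strand): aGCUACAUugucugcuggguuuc
hsa-miR-222-3p (host MIR222HG, chrX:45747036-45747056, minus strand): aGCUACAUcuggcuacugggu
hsa-miR-15a-5p (host DLEU2, chr13:50049167-50049188, minus strand): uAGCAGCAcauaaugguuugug
hsa-miR-16-5p (host DLEU2, chr13:50049027-50049048, minus strand): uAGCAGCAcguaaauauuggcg
hsa-miR-26a-5p (host CTDSPL, chr3:37969413-37969434, plus strand): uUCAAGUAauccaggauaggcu
hsa-miR-103a-3p (host PANK3, chr5:168560904-168560926, minus strand): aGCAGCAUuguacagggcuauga
The pairs of miR-221-3p with miR-222-3p and of miR-15a-5p with miR-16-5p each share a seed. Hairpins of miR-16-5p, miR-26a-5p and miR-103a-3p lie also in SMC4, CTDSP2 and PANK2, hosts that were tested and not called.

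MIR34AHG, whose miRNA miR-34a is a well-known p53 target, had 281, 232 and 264 normalized counts in AGO1 and 137, 152 and 178 in AGO2 knockout samples. The groups did not overlap, and the difference was -0.74 (standard error 0.14, adjusted p = 0.00238 by edgeR). MIR222HG was at 1795, 1573 and 2120.2 and 1133, 1337 and 975 (-0.67, adjusted p = 0.0112 by edgeR). CDKN1B, the CDK inhibitor p27 and a classic target of the miR-221/222 seed, was at 1042, 1069 and 1065 and 1778, 1409 and 1647, a rise of 0.61 (adjusted p = 0.00239 by edgeR). It was picked with its values in view, other targets of this seed were not examined, and a link to MIR222HG was not tested. Among the hosts that were higher, DLEU2 rose from 923, 937 and 661 to 1319, 1392 and 1327 (0.68) and CTDSPL from 948, 843 and 874 to 1371, 1651 and 1498 (0.76). PANK3 rose by 0.42. The other tested hosts of the CTDSP and PANK families, CTDSP1 (0.21), CTDSP2 (0.10), PANK1 (-0.50) and PANK2 (0.07), were not called. A host RNA is not a measure of its mature miRNA. Among the hosts, 1 was higher without AGO2 knockout replicate 2, and the count of those lower was 1 without AGO2 knockout replicate 3 and 4 without wild-type replicate 3.

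Of 27 classic let-7 targets tested, 5 were higher and 2 lower. CCND1, the G1 cyclin D1, was the one with the largest rise, from 13099.9, 14685 and 14414 to 21666, 34911 and 23583 normalized counts. Its lowest AGO2 knockout sample was above its highest AGO1 knockout sample, and the difference was 0.93 (standard error 0.14, adjusted p = 0.000577 by edgeR). PLAGL2 (0.61) and STARD13 (0.59) were also higher, and IGF2BP3, an oncofetal RNA-binding protein, was lower (-0.82). HMGA2, the target most often used as a let-7 reporter, was at 18778, 18775 and 19013 and 20729.9, 21868 and 18677 and did not pass (0.12, adjusted p = 0.441 by edgeR). The median of the list was 0.24.

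The genes with the largest rises were picked among genes whose groups did not overlap, so their separation was set by that choice. EHF, an epithelial ETS transcription factor, had 90.0, 83.8 and 85.4 normalized counts in AGO1 and 2116, 1922 and 2054 in AGO2 knockout samples. Wild-type samples had 2064, 1768 and 1944, so that the AGO2 knockout level lay within the wild-type range or just above it while the AGO1 knockout level was far below (4.55, standard error 0.14, adjusted p = 1.56e-11 by edgeR). PRPS1, which makes the phosphoribosyl donor for nucleotide synthesis, was likewise lowest in AGO1 knockout cells, with 183, 239 and 163 in AGO1 and 2007, 2615 and 2454 in AGO2 knockout samples against 1684, 982 and 1613 in wild-type cells (3.60). S100A4, a calcium-binding protein associated with metastasis, was at 491, 488 and 688 and 5881, 3783 and 4735, against 3432, 1915 and 3696 in wild-type cells (3.11). Against wild type, the AGO2 knockout level was called higher for PRPS1 (0.73) and was not called for EHF (0.08) or S100A4 (0.67). SLC15A1, the intestinal peptide transporter (3.16), CYP4F11, a fatty acid hydroxylase (2.60), and STUM (2.80) had AGO2 knockout levels that were not called against wild type. SUSD2 (2.75) and FABP6, the ileal bile acid-binding protein (2.67), were also lower in AGO1 knockout cells than in wild-type cells. SATB1, a chromatin organizer (2.64), was below wild type by the test in both lines (-4.12 in AGO1 and -1.48 in AGO2 knockout cells). In the AGO1/2 knockout line, which also lacks AGO1, PRPS1 (0.60), S100A4 (1.02), SUSD2 (2.58) and CYP4F11 (0.73) were called above wild type. EHF (-1.48) and SATB1 (-3.58) were called below wild type there, and SLC15A1, STUM and FABP6 were not called.

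Other large rises were those of genes with levels above wild type in the AGO2 knockout line. NEUROD2, a neuronal transcription factor, was at 1953, 1864 and 1968 normalized counts there, and at 92.1 to 112 in AGO1 knockout, 67.2 to 106 in wild-type and 90.6 to 108 in AGO1/2 knockout samples (4.21, adjusted p = 2.47e-10 by edgeR). CABYR, a calcium-binding protein of sperm, was at 196, 175 and 160.0 against 2.07, 8.5 and 8.87 (4.78), and its AGO1 knockout level was below wild type by the test (-1.31). ENSG00000283228, at 93.8, 100.1 and 184, was at least 37.5-fold higher, taking the floor of 3 counts a sample for the AGO1 knockout line. It was also high in AGO1/2/3 knockout samples, at 10.2, 112 and 99.2, and at 37.97 in 1 AGO1/2 knockout sample. In the AGO1/2 knockout line, which also lacks AGO2 but whose column names lack the word quasi, CABYR was at 10.3 to 14.9. The estimated counts of NEUROD2 and CABYR were not whole in all samples, nor were those of SATB1, SLC15A1, NRP1 and PURPL. Those of MYOC and RNF150, given below, were whole. A link between these levels and the way of quantification was not tested.

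**Figure D2:**
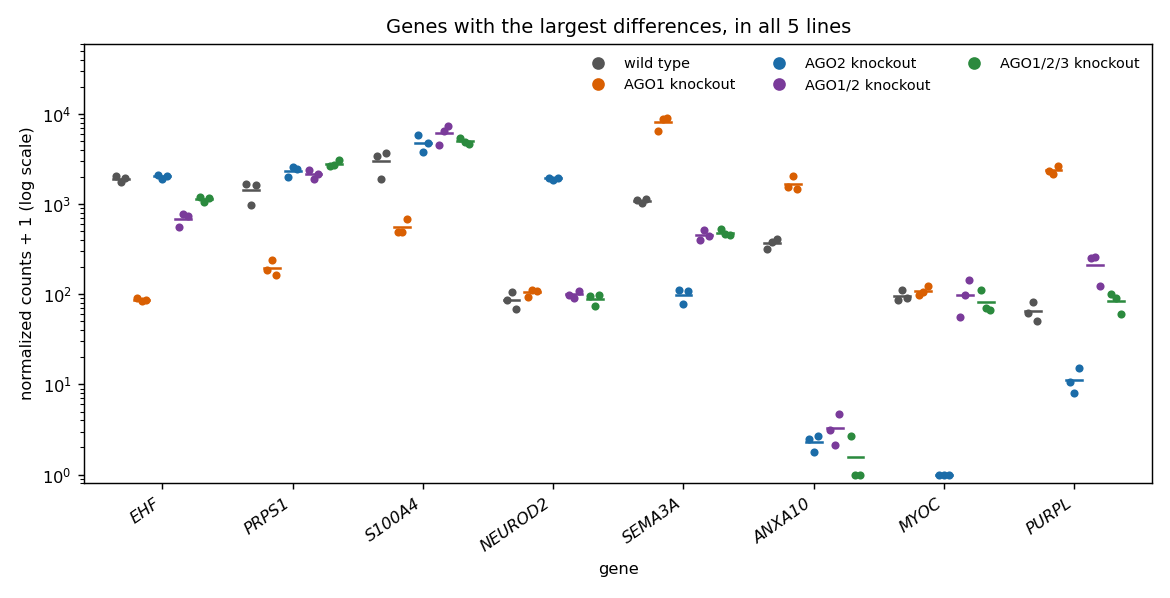
Normalized counts plus 1 (log scale) of 8 genes with large differences in each of the 3 samples of all 5 lines, with points for samples and bars for means. EHF, PRPS1 and S100A4 are lowest in AGO1 knockout cells, NEUROD2 is high and MYOC at 0 in AGO2 knockout cells alone among the lines, and SEMA3A, ANXA10 and PURPL are highest in AGO1 knockout cells.

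Among the largest falls, ANXA10, a calcium-dependent phospholipid-binding annexin, was at 1553, 2079 and 1456 normalized counts in AGO1 and 1.49, 0.77 and 1.68 in AGO2 knockout samples, and at 316, 384 and 410.0 in wild-type cells. It was at the floor in the AGO2 knockout line and at least 719.7-fold lower than in AGO1 knockout cells (adjusted p = 1.56e-11 by edgeR), with the wild-type samples in between. SEMA3A, a secreted guidance cue, was at 6444, 8839 and 8941 and 110.2, 76.2 and 109, with 1110.5, 1023 and 1134 in wild-type cells (-6.36, standard error 0.19, adjusted p = 1.56e-11 by edgeR). NRP1, its neuropilin receptor, was at 1621, 3003 and 2770.0 and 92.3, 145 and 97.7 (-4.46), and 1 wild-type sample reached 1166 while the others were at 265 and 243. The ligand and its receptor were therefore both high in AGO1 knockout and low in AGO2 knockout cells. DPEP1, a membrane dipeptidase, was at 213, 272 and 365 and 6.7, 0.77 and 1.68 (-6.45).

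MYOC was at 96.2, 106 and 123.1 normalized counts in AGO1 knockout samples and at 0 in all 3 AGO2 knockout samples, at least 46.0-fold lower. It was at 85.4 to 110.2 in wild-type and 55.4 to 142 in AGO1/2 knockout samples, so that among the 5 lines it was at 0 in the AGO2 knockout samples alone. RNF150 had the same pattern, with 118 to 139 in AGO1, 3.08 to 6.74 in AGO2 and 74.5 to 139 in AGO1/2 knockout samples (-4.52). PODXL2, a podocalyxin relative, was at 52.8, 58.3 and 97.6 and at the floor in AGO2 knockout samples, at least 29.5-fold lower, and was also near 0 in AGO1/2 knockout samples (0 to 2.45). TRANK1 (-4.72), SPOCK3, a matrix proteoglycan (-4.42), and SNTG2, a syntrophin (-4.33), were below wild type in AGO2 and above it in AGO1 knockout cells. The readthrough gene CFAP298-TCP10L, which shares exons with its neighbours, was at least 39.6-fold lower.

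Non-coding RNAs held some of the widest differences. PURPL, a p53-induced lncRNA, was at 2321, 2149 and 2673 normalized counts in AGO1 knockout samples and at 9.68, 6.93 and 14.3 in AGO2 knockout samples, with 61.5, 80.5 and 50.1 in wild-type cells. The AGO1 knockout level was the highest of the 5 lines, and the difference was -7.85 (standard error 0.34, adjusted p = 1.52e-09 by edgeR). LINC02616 was at the floor in AGO1 knockout samples and at 81.1, 76.2 and 87.6 in AGO2 knockout samples, at least 24.3-fold higher. ENSG00000228541 was at least 28.6-fold lower, ENSG00000279208 had -5.11, and SNORA64, a small nucleolar RNA, was at 63.1, 129 and 161 and 0, 0 and 9.27 (-5.28). Wild-type samples had 0, 0 and 3.01 for SNORA64, near the AGO2 knockout samples, and AGO1/2 knockout samples 75.9 to 86.0. The value of SNORA64 was -9.87 without AGO2 knockout replicate 3, the one sample of that line above 0. The mitochondrial ribosomal RNAs MT-RNR1 and MT-RNR2 are taken out by ribosomal RNA depletion, and what was left was at 11.4, 36.4 and 25.5 for MT-RNR1 in AGO1 and 380.4, 651 and 2605 in AGO2 knockout samples. MT-RNR2 was at 11.4 to 34 and 589 to 3786, and ENSG00000283907 at 56.9 to 114 and 1371 to 7625, with the third AGO2 knockout sample highest in each.

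Targets of p53, the transcription factor that answers DNA damage and other stress, were lower in AGO2 than in AGO1 knockout cells wherever they were called. Of 26 tested, 0 were higher and 14 were lower, and the median was -0.50. The median against wild type was 0.28 for AGO1 and -0.13 for AGO2 knockout cells, comparisons that share the wild-type samples. SPATA18, which acts in mitochondrial quality control, was at 69.3, 63.2 and 65.4 normalized counts in AGO1, 0, 0 and 0 in AGO2 knockout and 11.5, 13.8 and 11 in wild-type samples. It was at least 28.0-fold lower in AGO2 knockout cells, with wild-type cells in between. FDXR, a mitochondrial ferredoxin reductase, was at 2352, 2369 and 2325 and 1047, 932 and 1145 (-1.17, standard error 0.13, adjusted p = 3.74e-05 by edgeR). RRM2B, the p53-induced subunit of ribonucleotide reductase, was at 5521, 5883 and 5656 and 2714, 2525 and 2983 (-1.05, adjusted p = 1.95e-06 by edgeR). In both genes the AGO1 knockout samples were above the wild-type samples by the test (0.78 and 0.81), and the AGO2 knockout samples lay below them without passing it (-0.39 and -0.24).

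CDKN1A, the CDK inhibitor p21, was at 4644, 4365 and 5389 normalized counts in AGO1, 2518, 2401 and 3045 in AGO2 knockout and 3845, 6226 and 3559 in wild-type samples. Here the AGO1 knockout samples fell within the wild-type range and the AGO2 knockout samples below it (-0.85, standard error 0.21, adjusted p = 0.0103 by edgeR). MDM2, the ligase that degrades p53, was at 14234, 12848 and 11322 and 7567, 9235 and 8779, with 8190.0, 9049 and 7320.4 in wild-type cells (-0.59). DDB2, a sensor of ultraviolet damage, had -0.89. GDF15, a stress cytokine, and BBC3, the pro-apoptotic PUMA, varied more, at 2543, 3839 and 6288 and 438, 598 and 1023 in AGO1 and 1093, 825 and 1532 and 340.2, 164 and 267 in AGO2 knockout samples (-1.88 and -1.42). The most abundant members that were not called were CCNG1 (-0.31) and TNFRSF10B, a TRAIL receptor (-0.26). Without AGO1 knockout replicate 3 the count of members lower was 9.

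**Figure D3:**
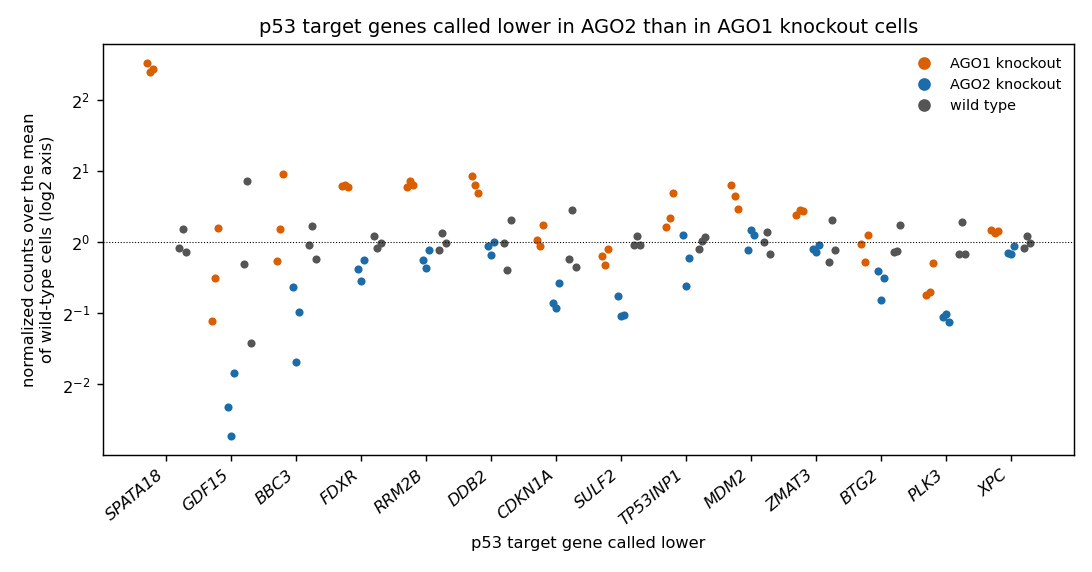
Normalized counts of the 14 p53 targets called lower, each sample divided by the wild-type mean of that gene (log2 axis), for the 3 samples of AGO1 knockout, AGO2 knockout and wild-type cells. The AGO1 knockout points lie above the AGO2 knockout points in every gene shown, and the 3 AGO2 knockout samples of SPATA18, at 0, cannot be drawn on this axis.

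Epithelial genes that were called were mostly higher in AGO2 than in AGO1 knockout cells. Of 37 junction and polarity genes tested, 12 were higher and 3 lower, with a median of 0.24. PRSS8, the membrane protease prostasin, was at 174, 224 and 297 normalized counts in AGO1, 656, 509.5 and 562 in AGO2 knockout and 589.6, 649.7 and 477 in wild-type samples (1.32, standard error 0.19, adjusted p = 0.000242 by edgeR). GRHL2, a transcription factor of epithelial identity, was at 484, 452 and 516 and 1206, 821 and 852, with 1218, 909 and 1041 in wild-type cells (0.99). ST14, the protease matriptase that acts with prostasin, was at 1581, 1723 and 1811 and 3148, 3279 and 2929.6 (0.87). For all 3 the AGO1 knockout samples were below wild type by the test (-1.31, -1.13 and -0.54) and the AGO2 knockout samples were not called against it (0.01, -0.14 and 0.33). CLDN4 (0.84), OVOL1 (0.79) and EPCAM (0.66) were higher too. CDH1, which encodes E-cadherin, was at 1050.3, 1336 and 1995 and 2688, 1921 and 2060.3 and missed the threshold (0.61, adjusted p = 0.0813 by edgeR).

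The genes of this list that were lower were the tight junction claudin CLDN2 (-1.51) and the desmosomal PKP3 (-0.65) and DSP (-0.39). The most abundant members of the list, the catenins CTNNA1 (-0.06) and CTNND1 (0.10), were not called. With at least 2-fold required, PRSS8 alone was higher and CLDN2 alone was lower among the 37 genes.

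Mesenchymal genes fell where they were called, 8 of 29 tested with 0 higher and a median of -0.53. Against wild type the median of the list was below 0 in both lines, at -0.24 for AGO1 and -0.64 for AGO2 knockout cells. VIM, the mesenchymal intermediate filament vimentin, was at 298, 337 and 169.7 normalized counts in AGO1, 72.2, 77.7 and 96.9 in AGO2 knockout and 151, 105 and 161 in wild-type samples. AGO1 knockout samples were above and AGO2 knockout samples below the wild-type samples (-1.70, standard error 0.24, adjusted p = 0.000261 by edgeR). ACTA2, smooth muscle actin, was at 288, 276 and 266 and 132, 90.1 and 115 (-1.30, adjusted p = 0.000119 by edgeR), and FN1, fibronectin, at 694, 839.6 and 949 and 453, 280.2 and 377 (-1.16). ZEB1, the repressor of epithelial genes and a classic target of the miR-200 family, was at 445, 527 and 515 and 247, 325 and 355, with 263, 319 and 301 in wild-type cells (-0.68, adjusted p = 0.00416 by edgeR). COL3A1 (12.1 to 29.9 against 0 to 2.98) and TGFBI (12.1 to 15.5 against 0 to 3.08) were called as well at very low counts, and COL3A1 is also one of the markers of other cell types given above, whose part in the result was not tested. AXL, a receptor kinase, was not called (0.44).

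Of 20 intestinal differentiation genes tested, 2 were higher and 5 lower. KLF4, a factor of differentiated epithelium, was at 799.9, 1373 and 2371 normalized counts in AGO1 and 391, 449 and 379 in AGO2 knockout samples. The groups did not overlap, and the difference was -1.90 (standard error 0.34, adjusted p = 0.00167 by edgeR). KRT20, a keratin of differentiated colonocytes, rose by 1.23 at low counts, and MUC13 was at the floor in AGO2 knockout samples, at least 5.0-fold lower. The count of members higher was 0 without AGO1 knockout replicate 3, and 1 without AGO1 knockout replicate 2, any AGO2 knockout sample, or AGO1/2/3 knockout replicate 1 or 2.

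Of the 22 genes that the study followed individually, 8 were higher and 0 lower, with a median of 0.32. The study chose them for clusters of reads in their 3′ untranslated regions, a readout not analysed here. MAL2, a protein of apical membrane sorting, was at 1973, 2542 and 2017 normalized counts in AGO1, 7227, 5909.6 and 5599.7 in AGO2 knockout and 6700.4, 6754 and 5381 in wild-type samples (1.52, standard error 0.14, adjusted p = 4.85e-06 by edgeR). GALNT3, an enzyme of mucin-type glycosylation (1.20), and CEMIP, which degrades hyaluronan (1.22), were not called between AGO2 knockout and wild-type cells (-0.27 and -0.22).

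Amino-acid stress, hypoxia and sterol genes differed between the lines and also within them. In the ATF4 and endoplasmic reticulum stress list, 7 of 30 were lower and 2 higher. CHAC1, which breaks down glutathione, was at 332, 927 and 831 normalized counts in AGO1 and 22.3, 36.2 and 35.4 in AGO2 knockout samples, and ranged from 61.2 to 1501 in wild-type cells (-4.47, standard error 0.98, adjusted p = 0.00601 by edgeR). ASNS, asparagine synthetase, was at 2833, 14543 and 10451 and 1720.4, 2076 and 2343, and at 10849, 15926 and 2477 in wild-type cells. The first AGO1 knockout and the third wild-type sample thus lay near the AGO2 knockout samples, and the call for ASNS was lost under 10 of 24 alternatives. PHGDH, the entry enzyme of serine synthesis (-1.83), and DDIT3, the stress factor CHOP (-2.19), followed the same order. The chaperones HSP90B1 (0.53) and PDIA4 (0.44), of the unfolded protein response, were the 2 that rose, and neither passed without AGO2 knockout replicate 2 or 3. The count of members lower was 3 without AGO1 knockout replicate 2 or 3 or AGO2 knockout replicate 2, 4 without AGO2 knockout replicate 3, and 11 without wild-type replicate 2 or 3.

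Hypoxia and glycolysis genes were higher in AGO2 knockout cells where they were called, 11 of 29 with 0 lower and a median of 0.74. ENO2, a glycolytic enolase, was at 562, 422 and 645 normalized counts in AGO1, 2458, 1619 and 1973 in AGO2 knockout and 1234, 975 and 3824 in wild-type samples (1.89, standard error 0.37, adjusted p = 0.00316 by edgeR). ADM, the peptide hormone adrenomedullin (1.88), EGLN3, a prolyl hydroxylase of HIF (1.65), and BNIP3, a mitophagy receptor (1.53), are other HIF targets that were higher. The highest wild-type sample exceeded all AGO2 knockout samples for ENO2 and BNIP3. The constitutive enzymes GAPDH (0.31) and PKM (0.10) were not called. Over the list, the highest sample of a line was 2.86 times its lowest in wild-type cells in the median, 1.38 times in AGO1 and 1.22 times in AGO2 knockout cells. The count of members higher was 4 without AGO1 knockout replicate 2 or 3 or AGO2 knockout replicate 1, and 5 without AGO2 knockout replicate 3. It was 7 without AGO1 knockout replicate 1, AGO1/2 knockout replicate 2 or AGO1/2/3 knockout replicate 2, 17 without wild-type replicate 2 and 18 without wild-type replicate 3.

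**Figure D4:**
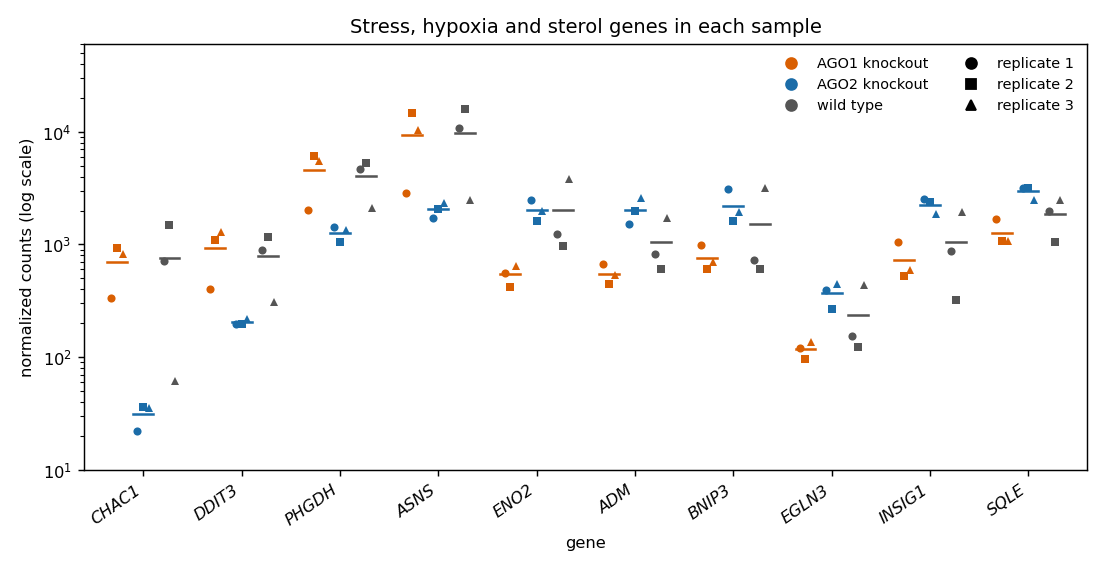
Normalized counts (log scale) of 4 stress genes, 4 hypoxia genes and 2 sterol genes in AGO1 knockout, AGO2 knockout and wild-type cells, with a marker shape for each replicate number and bars for means. The genes were picked among those called, and in each the samples of the 2 knockout lines stay apart. Wild-type replicates spread widely, as for CHAC1 at 61.2 to 1501.

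Cholesterol synthesis genes gave 8 higher and 0 lower of 24, with a median of 0.52. SQLE, the squalene epoxidase, was at 1676, 1072 and 1065 normalized counts in AGO1 and 3199.6, 3195 and 2492 in AGO2 knockout samples (1.22, standard error 0.26, adjusted p = 0.00543 by edgeR), and at 1980.3, 1050.3 and 2503 in wild-type cells. INSIG1, the sterol sensor's retention partner (1.63), and HMGCS1, which makes HMG-CoA (0.96), were higher as well, though HMGCS1 lost its call under 16 of 24 alternatives. The count was 2 without AGO1 knockout replicate 2 or 3, 13 without AGO1 knockout replicate 1, 4, 3 and 5 without AGO2 knockout replicates 1, 2 and 3, and 5 without AGO1/2 knockout replicate 2, AGO1/2/3 knockout replicate 2 or 3, or wild-type replicate 1. Of the fatty acid genes, ELOVL6, an elongase, rose by 0.90 and ACSL3 by 0.58, 2 of 14 tested, and ACSL3 lost its call under 14 of 25 alternatives.

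Growth factor genes moved in both directions. AREG, the EGF receptor ligand amphiregulin, was at 14699, 16085 and 24331 normalized counts in AGO1, 5500.0, 4866 and 4342 in AGO2 knockout and 12566, 18437 and 7959 in wild-type samples (-1.91, standard error 0.26, adjusted p = 0.000206 by edgeR). HBEGF, another ligand, fell too (-1.33), while EREG, the most abundant ligand of the list, was at 19915 to 23385 and 22642 to 26440.2 and did not pass. LRIG1, a brake on the receptors, was higher (0.54). EGF itself was at the floor in AGO1 knockout samples and at least 3.6-fold higher in AGO2 knockout samples.

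Other signaling lists were small. In the WNT list 1 of 15 was higher, CCND1, and 4 were lower, among them TNFRSF19 (-1.16), BMP4 (-0.93) and NKD2, a WNT antagonist (-0.81). The WNT members higher were 4, 3 and 2 without wild-type replicate 2, wild-type replicate 3 and AGO1 knockout replicate 1. Of 20 YAP and TEAD targets, 4 were higher, among them AMOTL2 (0.88) and TGFB2 (1.13), and GADD45A was lower (-1.12). ICAM1, an NF-kappa-B-induced adhesion molecule, was at 390.1, 448 and 539 normalized counts in AGO1, 99.8, 70.8 and 88.4 in AGO2 knockout and 200.0, 279.8 and 326 in wild-type samples (-2.41, standard error 0.20, adjusted p = 1.6e-06 by edgeR). RELB (-0.95) was lower and CXCL16 (0.61) higher among the 19 NF-kappa-B genes tested. The integrins gave 1 higher, ITGB8, at 225, 196 and 153 and 651, 690.4 and 522 (1.70), and 4 lower, among them the collagen receptor subunits ITGA1 (-0.67) and ITGA2 (-1.17). Of 17 ephrin and Eph genes, EPHA4 (1.02), EFNA4 (0.88) and EFNA3 (0.74) were higher and EFNB2 was lower (-0.56). EFNA3 lost its call under 12 of 24 alternatives, and EFNB2 without replicate 2 or 3 of either single knockout line. The ephrin and Eph members higher were 5 without wild-type replicate 2 and 1 without AGO1 knockout replicate 2 or 3 or AGO2 knockout replicate 3.

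Few cell cycle genes passed the test with all samples in the fit, although their medians were above 0. The median was 0.60 over 41 mitosis genes, of which 4 were higher and 0 lower, and 0.52 over 41 DNA replication genes, of which 2 were higher and 0 lower. The shares higher were 9.76% and 4.88%, against 9.67% of all genes tested and 13.5% of protein-coding genes. CDK1, the mitotic kinase, was at 4061, 3254 and 1689.9 normalized counts in AGO1, 5122, 5820.4 and 5727 in AGO2 knockout and 3761, 2011 and 4384 in wild-type samples. The third AGO1 knockout and the second wild-type sample were low, and over the mitosis list the highest sample was 2.40 times the lowest in AGO1 knockout cells in the median, 1.19 times in AGO2 knockout and 1.90 times in wild-type cells. The count for mitosis was 14 without AGO1 knockout replicate 1, 9 without wild-type replicate 2, 3 without AGO1/2 knockout replicate 1 or 2, and 1 or 2 without any one of the other 11 samples. That for DNA replication was 18 without wild-type replicate 2, 6 without AGO1 knockout replicate 1, 0 without replicate 2 or 3 of either single knockout line, and 17 without a filter on low counts. It was 1 without AGO2 knockout replicate 1, AGO1/2 knockout replicate 2, wild-type replicate 1 or any AGO1/2/3 knockout sample. CDK1 was called (0.89), a call lost under 17 of 25 alternatives. Among G1 regulators, CDKN2B, the CDK inhibitor p15, was at 436, 779 and 1159 and 153, 130.1 and 143 (-2.48, adjusted p = 0.00111 by edgeR). CDK6 (0.39) and RB1 (0.12) were not called.

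Ribosomal protein genes that were called were lower by small amounts, 25 of 78 with 0 higher and a median of -0.27. RPS4X was at 23398, 26512 and 29025 normalized counts in AGO1 and 17726, 15542 and 16289.6 in AGO2 knockout samples (-0.67, standard error 0.11, adjusted p = 0.000691 by edgeR), and RPL12 fell by 0.62 on the log2 scale. The count was 40 with total counts only, 39 without wild-type replicate 2, 6 without AGO1 knockout replicate 2 or AGO2 knockout replicate 3, and 4 without AGO1 knockout replicate 3 or AGO2 knockout replicate 2. None of the 78 differed by 2-fold. Of 36 nucleolar genes of ribosome synthesis, NHP2 (0.61) and LYAR (0.60) were higher. LYAR lost its call under 18 of 25 alternatives, and the count was 6 without AGO1 knockout replicate 1, 0 without replicate 2 or 3 of either single knockout line, and 1 without AGO1/2 knockout replicate 2 or 3 or any AGO1/2/3 knockout or wild-type sample. Of 13 mitochondrially encoded genes, MT-ND4L (-0.70), MT-ATP8 (-0.40) and MT-ND3 (-0.27) were lower. This count was 6 without wild-type replicate 2 and with total counts only, 5 without AGO1 knockout replicate 1, and 1 without AGO1 knockout replicate 2 or 3 or AGO2 knockout replicate 2. Mitochondrial genes took 8.60% to 10.2% of the counts in AGO1 and 7.41% to 8.65% in AGO2 knockout samples.

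Small structural RNAs that were called were lower in AGO2 than in AGO1 knockout cells, 11 of 23 with 0 higher and a median of -0.67. Over the whole class of small and other RNAs, 14.3% were lower. RMRP, the RNA of the RNase MRP enzyme, was at 272177, 295238 and 319338 normalized counts in AGO1, 100631, 89372 and 93896 in AGO2 knockout and 162364, 188229 and 224029 in wild-type samples (-1.64, standard error 0.18, adjusted p = 2.63e-05 by edgeR). RNU1-1, a U1 spliceosomal RNA, was at 29145, 42923 and 45276 and 10672, 8497 and 9513, with 5991, 7247 and 13397 in wild-type cells (-2.03). SNORA73A (-1.96) and RNU4-1 (-1.64) had differences of like size. RN7SL1 and RN7SL2, the signal recognition particle RNAs, were not called (-0.25 and -0.12). These RNAs are short and many have near-identical copies, so their counts are uncertain, and how the recovery of short RNA moved with the line was not tested.

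Chromatin and developmental genes held a few clear differences. BMI1, a Polycomb ring subunit, was at 2111, 2064 and 1944 normalized counts in AGO1 and 3189, 3207 and 3388 in AGO2 knockout samples (0.68, standard error 0.10, adjusted p = 0.000421 by edgeR). JARID2, a cofactor of the other Polycomb complex, was lower (-0.89), and RBBP4 (0.49) and TET3, which oxidizes methylcytosine (0.46), were higher. In all, 6 of 29 DNA methylation and Polycomb genes were higher and 1 lower, and 2 were higher without replicate 2 or 3 of either knockout line. Among 31 clustered HOX genes, 6 were higher and 5 lower, with HOXC10 (0.92) and HOXC13 (0.81) among the higher and HOXD4 (-1.69) and HOXB5 (-0.97) among the lower genes.

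Immune sensing genes showed little. Of 39 interferon-stimulated and RNA-sensing genes, TLR3, the endosomal sensor of double-stranded RNA, was at 63.1, 72.9 and 35.5 normalized counts in AGO1 and 154, 141 and 155 in AGO2 knockout samples (1.39, adjusted p = 0.00952 by edgeR), and CMPK2 (1.23) and IFIT2 (0.92) were higher at low counts. XAF1 was lower (-0.54). The members of this list that were higher numbered 0 without AGO1 knockout replicate 3, 1 without AGO1 knockout replicate 2 or AGO2 knockout replicate 1, and 5 without AGO1/2 knockout replicate 3. Of 16 class I antigen presentation genes, the chaperones CALR (0.66) and PDIA3 (0.33) were higher. PDIA3 lost its call under 16 of 24 alternatives, and the count was 6 without wild-type replicate 2 and 0 without AGO1 knockout replicate 2 or AGO2 knockout replicate 2 or 3. It was 1 without AGO2 knockout replicate 1, AGO1/2 knockout replicate 2, AGO1/2/3 knockout replicate 1 or 2, or wild-type replicate 1 or 3. Of 25 NRF2 targets, GCLM was higher (0.93) and EPHX1 lower (-0.30), of 34 histone genes H3C6 was higher (0.31), and of 12 MYC network genes MXD4 was lower (-1.01). H3C6 lost its call under 19 of 24 alternatives, and neither GCLM, EPHX1 nor MXD4 was called without AGO1 knockout replicate 3 or AGO2 knockout replicate 2 or 3. Without wild-type replicate 2, 3 NRF2 targets were higher and 3 lower. Of 26 snoRNA host and abundant lncRNA genes, SNHG6 was higher (0.37) and TUG1 lower (-0.48), while MALAT1 was not called (-0.43). SNHG6 was not called without replicate 1 or 3 of either single knockout line.

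**Figure D5:**
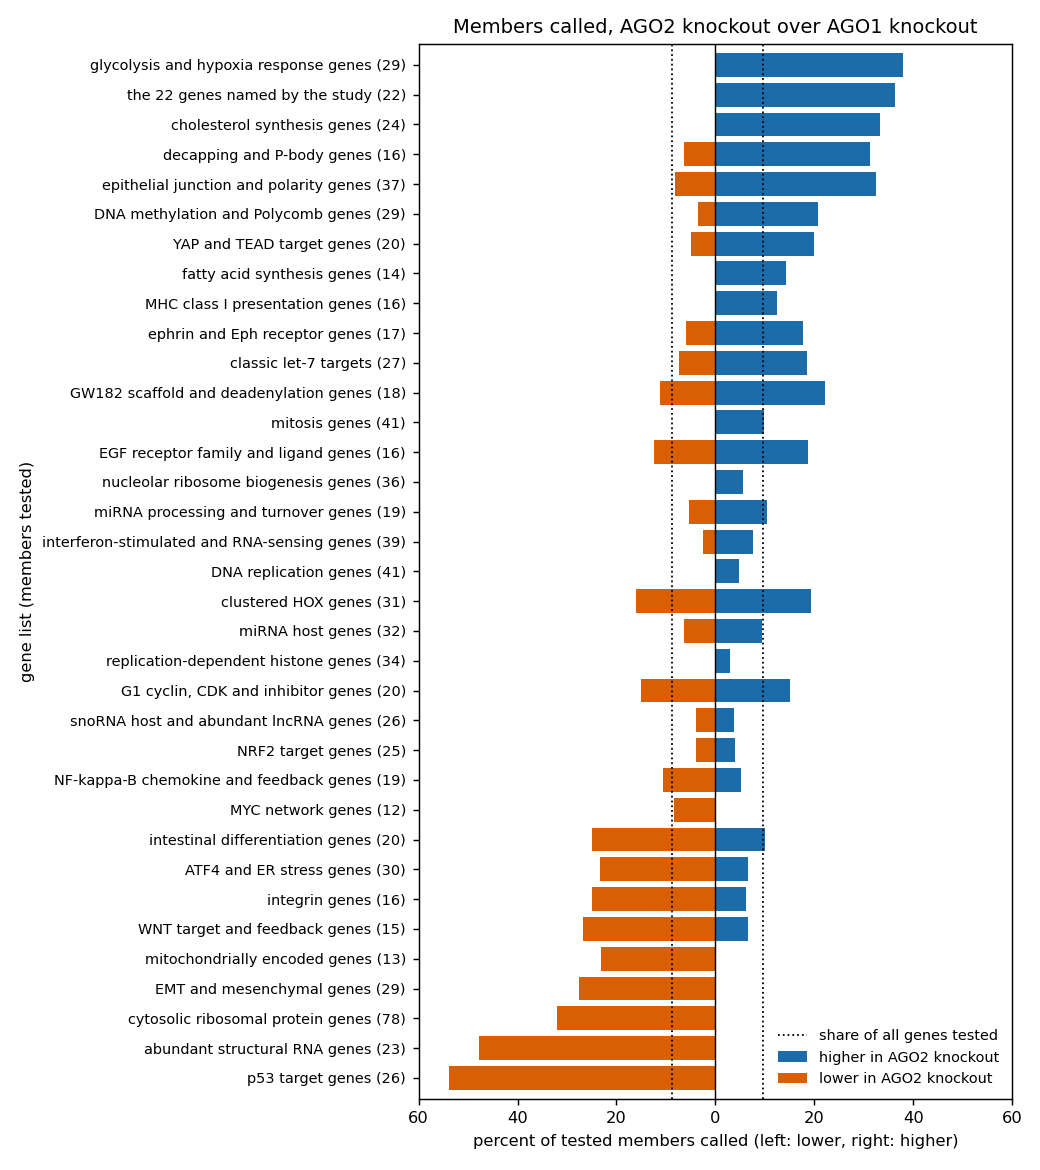
Percent of the tested members of each gene list shown, all with at least 10 members tested, that were called higher (right) or lower (left) in AGO2 than in AGO1 knockout cells, with the shares of all genes tested as dotted lines at 9.67% and 8.73%. The p53 targets reach 53.8% lower and the hypoxia genes 37.9% higher.

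Genes called in each direction lay on every autosome and on the X chromosome. Over 15916 genes that averaged 1 CPM or more, the median log2 fold change by chromosome lay between -0.02 on chromosome 15 and 0.13 on chromosome 21, against 0.05 over all of them. The 20 Mb window farthest from these values was that from 60 to 80 Mb on chromosome 9 (GRCh38), where the median of 56 genes was -0.50, with 6 higher and 23 lower. That window holds near-identical gene copies next to the centromere, among which reads cannot be assigned with certainty. Other windows leaned less, in both directions. Chromosome 6 from 60 to 80 Mb had -0.23 (2 higher, 9 lower) and chromosome 14 from 80 to 100 Mb -0.16 (5 and 17). Chromosome 11 from 100 to 120 Mb had 0.17 (22 and 3). A difference in copy number between the lines was not tested. The normalizer genes HPRT1 (1219 to 1838 against 2183 to 2219, 0.43) and SNRNP200 (14208 to 17002 against 16077 to 17213, 0.09) were not called.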

How the data were processed

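RNAseq of HCT116 cells was analysed in 15 samples of 5 lines with 3 replicates each. The deposited files hold estimated counts per gene made by the authors with Salmon on the hg38 build after alignment with STAR, and the submitters' processing notes name STAR 2.5.3a and Salmon 0.11.0. The column names of the AGO2 knockout samples hold the word quasi, unlike the others, and the study does not say what it stands for. If it names a quasi-mapping mode, such a mode can move reads between similar transcripts. The libraries were made from RNA depleted of ribosomal RNA. The study describes the samples of a line as biological replicates, and since each genotype is 1 line, p-values measure only the spread between samples of a line.

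Estimated counts were rounded, genes with low counts were removed with filterByExpr, and 1 edgeR 4.0.16 model with TMM factors was fitted to all 15 samples, from which the contrast of AGO2 over AGO1 knockout cells was taken with the quasi-likelihood test (Benjamini-Hochberg adjusted p of 0.05 or less). The tests were checked on simulated data. A fold against a line with no more than 3 counts in any sample is given as a bound from a floor of 3 counts a sample. Counting error alone sets these floors. The named genes were the Argonautes and their partners, the 12 largest rises and the 12 largest falls among protein-coding genes with at least 1 CPM whose groups did not overlap, the 4 largest each way among other genes, and in each list up to 4 called and 2 abundant uncalled genes. Others (RRM2B, MDM2, DDB2, EPCAM, CLDN4, OVOL1, PKP3, DSP, CDH1, FN1, ZEB1, CDKN1B, the hosts' relatives and further single genes of the lists) were picked with their values in view. The members and lists were chosen with earlier results of these data known. Gene positions and classes came from the reference annotation, and miRNA sequences from RefSeq. The alternatives were other scaling, DESeq2 1.42.0, other filters, fewer samples and a replicate block. The eCLIP samples were not analysed here. Some genes and 1 gene list are not reported here.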

Additional observations from a re-analysis of the deposited data

Results flagged for a closer look

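Of the 152 named genes called in the direct comparison, 21 were also called against wild-type cells in opposite directions in the 2 knockout lines. Many of them were named for a large difference in the direct comparison, which is therefore part of the choice and no separate test. The share of such genes over all genes tested was not counted. The 2 comparisons with wild type share the wild-type samples. The log2 fold changes of AGO2 knockout over AGO1 knockout cells were negative, with AGO1 knockout cells above and AGO2 knockout cells below wild type, for ANXA10 (-10.21), SPATA18 (-9.05), PURPL (-7.85), DPEP1 (-6.45), SEMA3A (-6.36), ENSG00000228541 (-5.85), ENSG00000279208 (-5.11), TRANK1 (-4.72), NRP1 (-4.46), SPOCK3 (-4.42) and SNTG2 (-4.33). Smaller differences of the same order were those of ICAM1 (-2.41), VIM (-1.70), RMRP (-1.64) and ACTA2 (-1.30). The order was the opposite, with AGO1 knockout cells below and AGO2 knockout cells above wild type, for EPCAM (0.66), FABP6 (2.67), SUSD2 (2.75), PRPS1 (3.60), CABYR (4.78) and LINC02616 (7.36). The fitted values of ANXA10, SPATA18, ENSG00000228541 and LINC02616, which were at the floor in 1 line, depend on the prior count of the fit and are no bounds.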

How the results depend on the processing

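The direct comparison called 2209 genes higher and 1995 lower. More genes were higher with the DESeq2 Wald test (2653 and 1923), DESeq2 size factors (2213 and 1968) and no filter on low counts (2470 and 2036). More were lower with total counts only (1813 and 2160), at least 10 counts in every sample (1655 and 2030) and the 6 compared samples (1667 and 2021). Among genes with whole counts in all samples the counts were 699 and 684, since fewer genes were tested, and with at least 2-fold required they were 382 and 901. Leaving out 1 sample at a time gave 960 to 2592 genes higher and 1139 to 2834 lower, and which count was larger depended on the sample. Without AGO1 knockout replicate 1 the counts were 2366 and 2162, and without AGO1/2/3 knockout replicate 2 they were 1532 and 1966. AGO2 RNA, at -0.29 and short of the threshold, passed it with total counts only (-0.32), the DESeq2 Wald test (-0.27), at least 10 counts in every sample (-0.34), the replicate block (-0.29) and protein-coding genes only (-0.36), and leaving out 1 sample gave -0.38 to -0.25. The cause was not tested. The replicate numbers did not pair the samples: deviations of samples with the same number had a mean correlation of -0.00669 over 30 pairs, against 0.00334 over 60 pairs with different numbers. A fit with the replicate number as a block called 2012 genes higher and 1868 lower. Of the genes named without a call, PANK2 was at -0.0048 with protein-coding genes only, and CTDSP2 lay between -0.050 and 0.26 when 1 sample was left out. Of the 152 named genes that were called, 64 kept their call under every alternative, and over all 3673 values of called genes 411 lost the call and 0 changed direction. The block ended the calls of ASNS, CEMIP, H3C6, HMGCS1, LYAR, MT-ND3, SRSF3 and TNRC6B and no other call of a named gene. Without a filter on low counts the members called were 17 in the hypoxia list, 13 in the stress list (lower), 21 in the mitosis list and 15 in the ribosomal protein list. With the 6 compared samples alone they were 17, 14, 1 and 20. In smaller lists, without AGO1 knockout replicate 2, AGO1 knockout replicate 3, AGO2 knockout replicate 2 and AGO2 knockout replicate 3 in turn, the scaffold and deadenylation genes had 1, 1, 1 and 0 members higher, YAP targets 0, 1, 1 and 1, and let-7 targets 3, 3, 2 and 3. Without the last 3 of these samples in turn, the integrins had 0, 1 and 1 members lower, and HOX genes 2, 3 and 2 members higher and 2, 2 and 2 lower. The 22 genes of the study had 4, 5 and 5 members higher without AGO1 knockout replicate 2, AGO1 knockout replicate 3 or AGO2 knockout replicate 2. The depth of 27709971 to 45271146 counts a sample limits genes near the floor of 3 counts, for which bounds are given.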
